A study of Rattus norvegicus with 24 samples.

Results

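Myelin genes of mature oligodendrocytes were followed in the frontal cortex of 24 rats that had inhaled tungsten particles or a control atmosphere. The genes were Mbp, Mog, Mag, Mobp, Cnp, Cldn11, Mal, Ermn and Opalin, taken by gene name from the reference genes of each table. All 9 names were found, each with a single Ensembl identifier, among 32883 reference genes, and all 9 were above 0 in every library. The animals were adult male Sprague-Dawley rats, with 8 in the Control group (0 mg/m3), 8 in the Low group (5 mg/m3) and 8 in the High group (80 mg/m3), and tissue was taken the day after exposure. The sample labels mark the treatment of every group, Control included, as inhalation of tungsten particles, and the concentration sets the groups apart. Every sample title, in all 3 groups, also carries the word Repeat, and whether it marks a repeated exposure was not settled here. The labels describe the RNA source as cell lines of the frontal cortex, whereas the study's methods describe tissue, and each rat is taken here as a separate animal. Rats are named by the replicate number of the labels, 49 to 56 for Control, 57 to 64 for Low and 65 to 72 for High.

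Each table gives, per gene, the coverage, which is the mean read depth per base. Coverage was divided by its sum over all reference genes of the library and multiplied by 1000000, and this scaled coverage is the level given for every gene, so levels of different genes are compared per base of length. Coverage over FPKM gives the read depth, which was 5.05 to 7.86 gigabases for Control libraries, 3.34 to 6.42 for Low libraries and 4.95 to 7.65 for High libraries. Mitochondrial genes took 21.8% to 33.8% of the reference coverage. Control tables listed 46334 to 159573 loci assembled from the reads in addition to the reference genes and High tables listed 50235 to 64010, whereas Low tables listed 0, so that the Low group and its kind of table cannot be told apart. Libraries 56 to 62, which are 1 Control and 6 Low rats, had 1.15% to 1.76% of the coverage on the mitochondrial minus strand, against 0.476% to 0.712% in the other 17. Markers of neurons (9 genes) and of cortical layers (8 genes) were all detected, so the labelled tissue had its defining markers. Markers of the striatum, a neighbouring region, were also detected, with a summed scaled coverage of 227 to 1606.

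Oligodendrocytes wrap axons of the central nervous system in myelin, a stack of their own plasma membrane that insulates the axon and speeds conduction. Compact myelin is held together by basic and proteolipid proteins, while adhesion molecules, tight junctions and cytoskeletal proteins shape its edges and its contact with the axon. The genes are switched on together late in differentiation, under transcription factors that include Myrf and members of the Sox family. In the frontal cortex, myelin is densest in the deep layers and in the white matter beneath them.

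The promoters of the myelin genes were searched because these genes varied together between rats, Opalin least closely, as described further on. RefSeq windows of assembly GRCr8, from 250 bases before to 50 bases after the gene start, were given for 7 of the 9 members and were not found here for Mog and Ermn. In each window the words CTGGCAC and CTGGTAC, which Myrf recognizes, and ACAAAG and ACAATG, which Sox factors recognize, were searched on both strands. Printed are the 3 windows that hold both a Myrf and a Sox word (Mag, Cnp and Opalin) and that of Mobp. Not printed are those of Mbp, Cldn11 and Mal, the last 2 with 1 Myrf word and 0 Sox words each. No matches overlap in the windows printed. Capitals mark the matches, and where the word lies on the opposite strand it appears as GTGCCAG for Myrf and as CTTTGT or CATTGT for Sox factors. Coordinates are those of GRCr8, and each window reads along the strand of its gene.
Mag, chr1:95290995-95291294, minus strand: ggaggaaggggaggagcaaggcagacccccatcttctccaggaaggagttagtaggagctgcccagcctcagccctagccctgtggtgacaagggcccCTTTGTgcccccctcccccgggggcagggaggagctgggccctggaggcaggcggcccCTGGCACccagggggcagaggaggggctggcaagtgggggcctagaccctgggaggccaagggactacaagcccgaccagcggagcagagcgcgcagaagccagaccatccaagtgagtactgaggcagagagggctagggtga
Cnp, chr10:86011254-86011553, plus strand: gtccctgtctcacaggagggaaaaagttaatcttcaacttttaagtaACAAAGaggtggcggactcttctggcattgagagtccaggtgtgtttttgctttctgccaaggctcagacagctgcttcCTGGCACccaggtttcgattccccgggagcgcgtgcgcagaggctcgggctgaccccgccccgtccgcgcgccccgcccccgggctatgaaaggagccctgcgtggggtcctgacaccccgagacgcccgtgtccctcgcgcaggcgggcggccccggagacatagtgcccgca
Opalin, chr1:249858141-249858440, minus strand: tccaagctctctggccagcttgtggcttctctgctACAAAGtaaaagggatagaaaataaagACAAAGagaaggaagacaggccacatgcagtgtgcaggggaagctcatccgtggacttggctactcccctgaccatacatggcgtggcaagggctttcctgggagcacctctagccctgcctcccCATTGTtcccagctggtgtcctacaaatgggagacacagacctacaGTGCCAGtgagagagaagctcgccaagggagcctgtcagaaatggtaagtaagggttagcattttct
Mobp, chr8:128746982-128747281, plus strand: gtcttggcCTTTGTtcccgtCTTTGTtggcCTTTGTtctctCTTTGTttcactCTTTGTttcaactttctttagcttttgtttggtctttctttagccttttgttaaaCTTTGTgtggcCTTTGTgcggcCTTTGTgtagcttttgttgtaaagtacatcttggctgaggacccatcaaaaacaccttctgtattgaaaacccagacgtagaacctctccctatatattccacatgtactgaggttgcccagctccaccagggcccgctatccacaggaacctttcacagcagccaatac
A Myrf word stood in 5 of the 6 windows of members other than Mbp (Mag, Cnp, Cldn11, Mal and Opalin), and in 6.78% of all 33469 promoters of the table. The Mobp window held 0 Myrf words. A Sox word stood in 4 of these 6 windows (Mag, Cnp, Opalin and Mobp), and in 29.1% of all promoters. The Mobp window held 8 Sox words, all of them ACAAAG on the opposite strand and spaced along the upstream part, and 3 of the 33469 promoters held 8 or more. Mbp had 2 windows in the table, neither with a Myrf word, and 1 of them with 3 Sox words. A match is a description of the letters and was not tested as a binding site.

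The levels of the members spanned a wide range, with the same order of means in the 3 groups when read as coverage of the reference record. Mbp, whose protein binds the cytoplasmic faces of the myelin membrane together, was the highest of them. Its mean in Control was 2412 ± 260 (SD, n = 8), and over the 24 rats it ranked 33rd among the reference genes. Cnp, a cyclic nucleotide phosphodiesterase that keeps cytoplasmic channels in myelin open, came next at 361 ± 53.8 (SD, n = 8). Cldn11, the claudin of the myelin tight junctions, had 258 ± 41.0, and Mobp, a basic protein of compact myelin, had 208 ± 35.7 (SD, n = 8 each). Mag, an adhesion molecule of the membrane facing the axon, had 186 ± 25.3, and Mal, a proteolipid of membrane sorting, had 167 ± 22.9 (SD, n = 8 each). Mog, a glycoprotein of the outer surface of myelin, had 113 ± 16.1 (SD, n = 8). Ermn, an actin-binding protein of late oligodendrocytes, had 71.4 ± 12.9, and Opalin, a transmembrane glycoprotein of mature oligodendrocytes, had 44.7 ± 16.0 (SD, n = 8 each). The place of Mobp depended on the record read, since its median with assembled loci included was 334 in Control, above the 266 of Cldn11. The range of Mbp did not overlap that of Cnp in any group, and Mog and Ermn did not overlap in Control. All other neighbouring genes overlapped in their ranges, although Cnp exceeded Cldn11 in all 24 rats and Mal exceeded Mog in all 24. Mobp exceeded Mag in 7 of 8 Control, 7 of 8 Low and 6 of 8 High rats, with a ratio of means of 1.12 (Control), 1.10 (Low) and 1.08 (High), so these neighbours were not separated by more than their spread. Mag and Mal were likewise close, with ratios of 1.12, 1.03 and 1.10.

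In the tables' own coordinates Mbp (ENSRNOG00000016516) lies on chromosome 18 (79326738 to 79437310, plus strand), Cnp (ENSRNOG00000017496) on chromosome 10 (88490798 to 88497356, plus) and Cldn11 (ENSRNOG00000010263) on chromosome 2 (115823538 to 115836846, minus). Mobp (ENSRNOG00000018700) lies on chromosome 8 (128824508 to 128850358, plus), Mag (ENSRNOG00000021023) on chromosome 1 (89345429 to 89360733, minus) and Mog (ENSRNOG00000000775) on chromosome 20 (2004052 to 2014286, plus). Mal (ENSRNOG00000015445, 120209647 to 120233655) and Ermn (ENSRNOG00000021472, 44068057 to 44086022) are both on the minus strand of chromosome 3, and Opalin (ENSRNOG00000022386) is on the minus strand of chromosome 1 (260324028 to 260341723). The labels name the build mRatBN7.2, but the tables place reference genes of chromosome 1 as far as 282724300, so the build of these positions was not settled. Mbp contains AC097762.1 on its own strand, with a mean scaled coverage of 0.0342. Mog overlaps 117 bases of Zfp57 and Ermn overlaps 6622 bases of Galnt5, both on the opposite strand and at mean levels of 17.5 and 0.0726.

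The first question was whether either concentration changed the myelin genes. In basic and proteolipid proteins of compact myelin the groups overlapped. Mbp spanned 1812 to 2613 among Control rats (median 2513), 1836 to 4006 among Low rats (median 2899) and 1131 to 3027 among High rats (median 2330.4). Of the Low rats 5 were above every Control rat, while 2 High rats were above and 2 were below every Control rat. Mobp spanned 145 to 239 among Control rats (median 222), 146 to 317 among Low rats (median 214) and 90.8 to 272 among High rats (median 187). Its Low and Control medians lay close, and 2 Low and 2 High rats were above every Control rat. Mal spanned 133 to 197 among Control rats (median 172), 137 to 272 among Low rats (median 189) and 93.7 to 226 among High rats (median 158). For Mal, 3 High rats were above every Control rat and 3 were below every one of them.

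The groups overlapped in the same way in Mog, Mag, Cnp and Cldn11. Mog spanned 89.6 to 136 among Control rats (median 117), 94.2 to 168 among Low rats (median 118) and 60.3 to 143 among High rats (median 114). Mag spanned 144 to 217 among Control rats (median 188), 153 to 278 among Low rats (median 194) and 99.4 to 243 among High rats (median 190.1). For both genes a single Low rat was above every Control rat and the 3 medians were close. Cnp spanned 266 to 422 among Control rats (median 370.1), 329.7 to 507 among Low rats (median 380.3) and 203 to 460.1 among High rats (median 359). Cldn11 spanned 198 to 314 among Control rats (median 266), 238 to 368 among Low rats (median 258) and 127 to 333 among High rats (median 257). In each of these 4 genes the widest range was that of High, which extended below the lowest Control rat in 2 or 3 animals and above the highest in 1 or 2.

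Among the genes of the late cell, Ermn spanned 48.0 to 86.1 among Control rats (median 73.5), 56.0 to 132 among Low rats (median 75.6) and 38.4 to 89.4 among High rats (median 61.8). For Ermn, 3 Low rats were above every High rat. Opalin spanned 29.5 to 80.8 among Control rats (median 40.4), 28.5 to 67.6 among Low rats (median 43.9) and 26.1 to 76.5 among High rats (median 38.9). The Opalin ranges of the groups nearly coincided, and its coefficient of variation of 27.5% to 40.2% within groups was the largest of the 9 genes in Control and High.

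**Figure D1:**
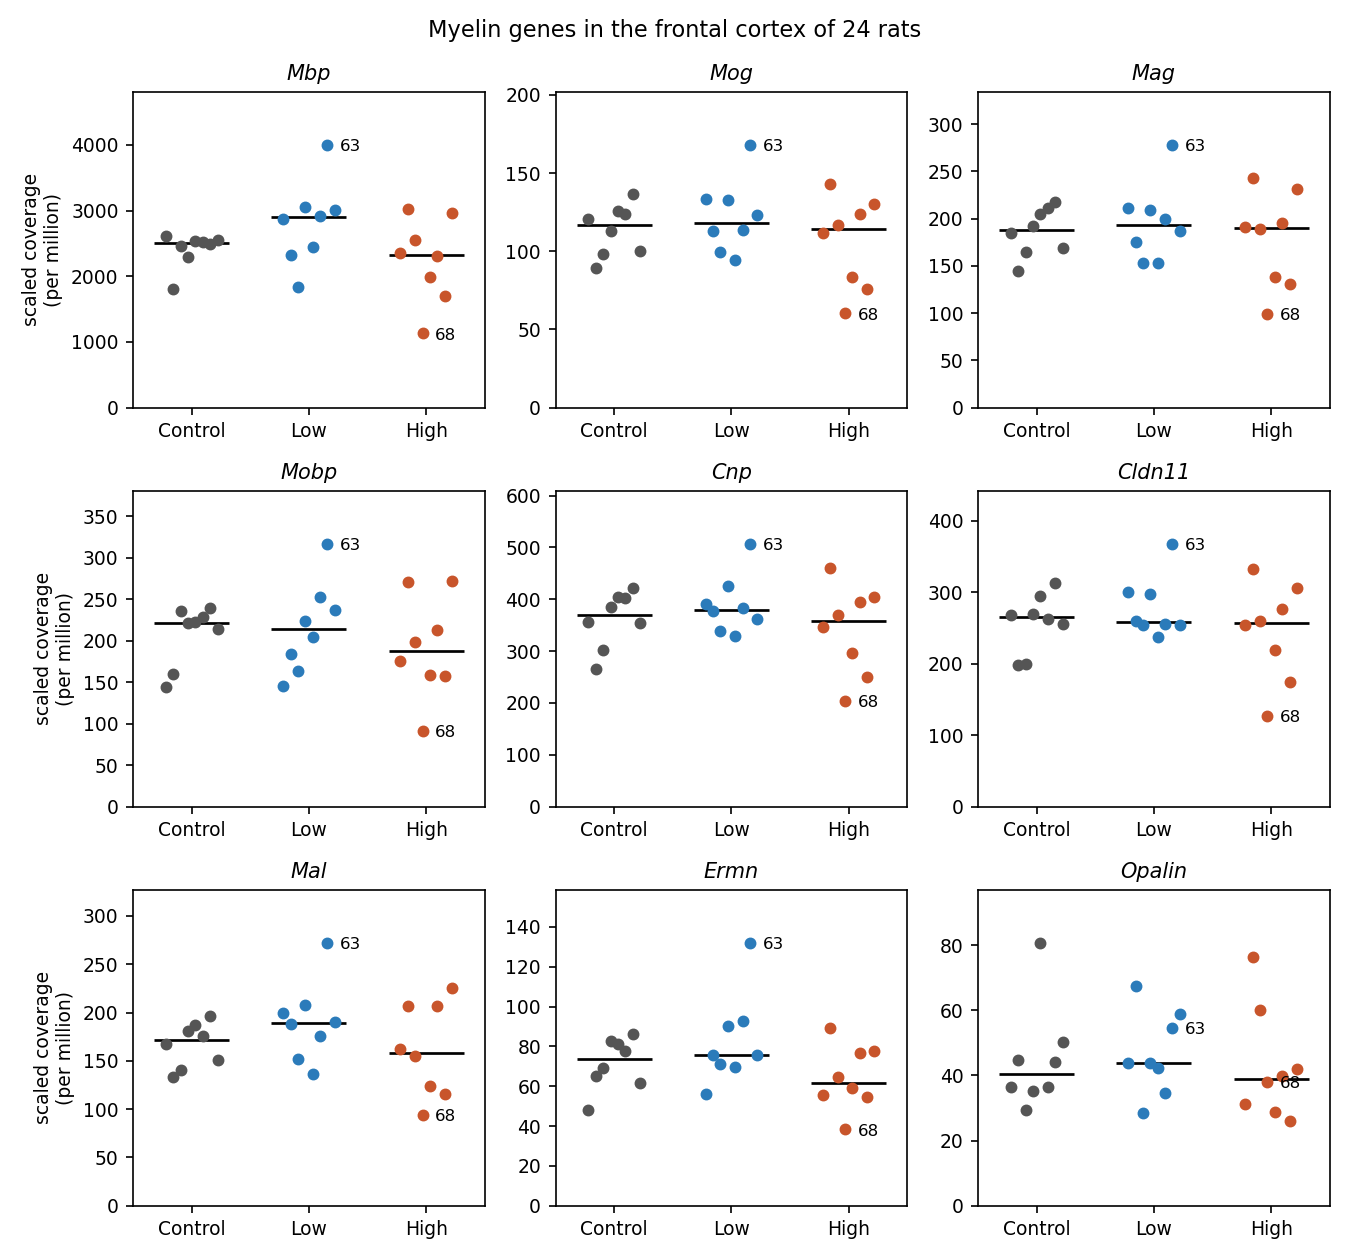
Scaled coverage (per 1000000 of reference coverage) of the 9 myelin genes in each rat, with 8 points per group (Control grey, Low blue, High orange), a black line at the group median and a linear axis from 0. The groups overlap in every panel, and rats 63 (Low) and 68 (High) are the highest and lowest of 24 in 8 of the 9 genes, Opalin being the exception.

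No member passed the threshold of an adjusted p under 0.05 in Low against Control, by limma on log2(scaled coverage + 1) with Benjamini-Hochberg adjustment over 15644 genes. That was 0 of 9, beside 6.11% of all genes tested, and 0 of the 9 had an unadjusted p under 0.05 (2885 of 15644 genes had). The 9 log2 fold changes were all positive, from 0.03 for Mobp to 0.20 for Mbp, with a median of 0.11 beside 0.06 over all genes and adjusted p from 0.554 to 0.940. For Mbp the fold was 1.15, with a 95% confidence interval of 0.905 to 1.45. For Cnp it was 1.08 (0.888 to 1.31) and for Opalin 1.06 (0.778 to 1.43), so the intervals reach folds of this size. Without rat 63 the median was 0.05 on the log2 scale, and 7 of the 9 values were positive. In bulk tissue, more cells of a type and more RNA per cell cannot be told apart.

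In High against Control 0 of 9 members passed the threshold, beside 0% of all genes tested, and 0 of the 9 had an unadjusted p under 0.05 (330 of 15644 genes had). The 9 log2 fold changes were all negative, from -0.16 for Mobp to -0.08 for Opalin, with a median of -0.12 beside -0.03 over all genes and adjusted p of 0.999. Markers of other cells had medians of -0.13 (cortical layers, 8 of 8 negative), -0.13 (endothelium, 4 of 4 negative) and -0.09 (neurons, 7 of 9 negative). The median was -0.07 for astrocytes (7 of 8 negative) and -0.31 for striatum (8 of 8 negative). It was -0.28 for choroid plexus (2 of 2 negative), -0.10 for blood (3 of 4 negative) and 0.04 for microglia (4 of 8 negative). For Mbp the fold was 0.901 (95% confidence interval 0.712 to 1.14) and for Mobp 0.892 (0.684 to 1.16). Without rat 68 the median was -0.02, and 2 of the 9 values were positive. With coverage as deposited, not scaled, all 9 were positive at 0.02 to 0.10, beside a median over all genes of 0.14, and 0 of the 9 passed.

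Low against High sets both exposures side by side. Here 0 of 9 members passed the threshold, beside 11.7% of all genes tested. An unadjusted p under 0.05 was found for 2 of the 9, beside 4545 of all 15644 genes. Ermn was 0.36 higher on the log2 scale (SE 0.16, adjusted p = 0.148 by limma), a fold of 1.28 with a 95% confidence interval of 0.02 to 0.69 on the log2 scale. Mbp was 0.35 higher (SE 0.16, adjusted p = 0.164 by limma), a fold of 1.27 with an interval of 0.01 to 0.69 on the log2 scale. The High median was exceeded by 7 of 8 Low rats for Ermn and by 6 of 8 for Mbp. The other 7 members lay between 0.16 (Opalin) and 0.27 (Mal), and the median of the 9 was 0.24 beside 0.09 over all genes, and 0.13 without rat 68. With coverage as deposited, not scaled, 6 of the 9 were positive, with a median of 0.02 beside -0.12 over all genes. The median was 0.14 with median-of-ratios scaling and 0.42 with libraries 56 to 62 as a covariate. Those libraries hold 6 of the 8 Low rats and no High rat, so the covariate is nearly nested in the Low group. Only 2 Low rats lie outside them, among them rat 63, the highest of the 24 in 8 members. The part of rat 63 in the value of 0.42 was not tested. By an exact two-sided permutation test over the 12870 assignments of 8 against 8, not adjusted, Ermn had p = 0.0720 and Mbp p = 0.111. The 3 comparisons share their groups and the 9 genes vary together, so the common signs are not 9 separate observations.

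**Figure D2:**
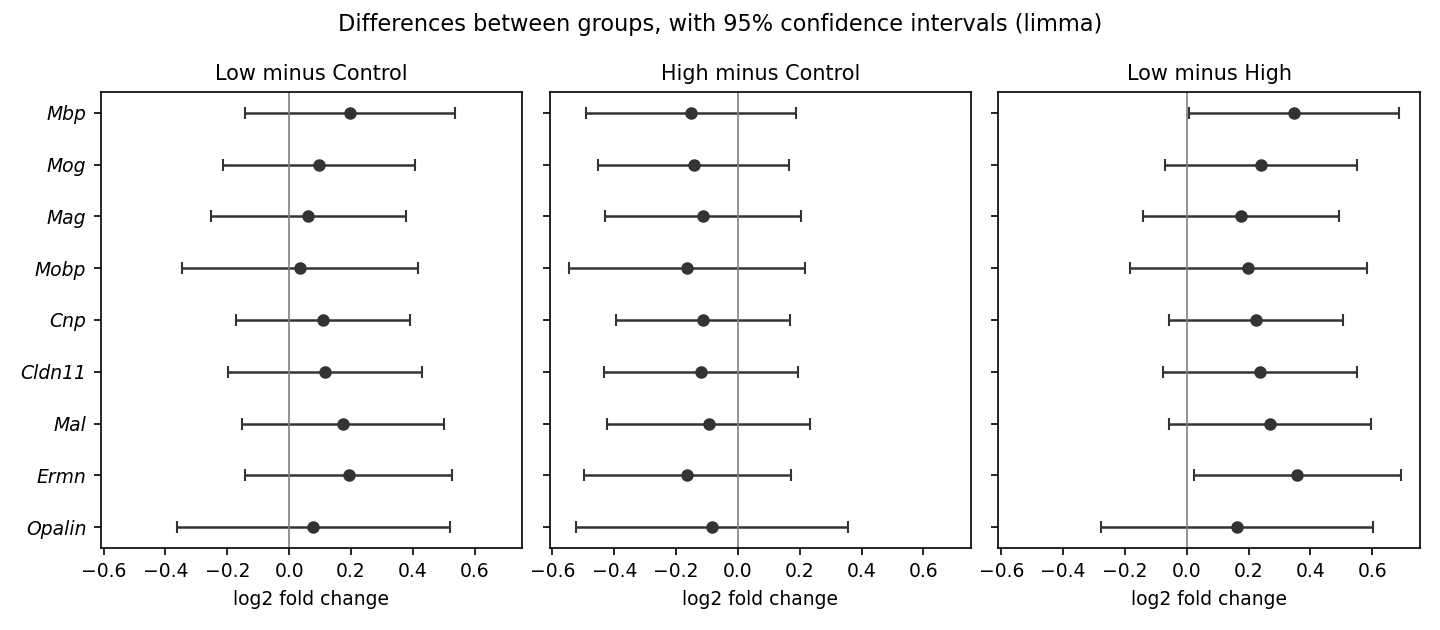
Log2 fold change of each myelin gene (points) with its 95% confidence interval (bars) from limma, for Low minus Control, High minus Control and Low minus High, n = 8 rats per group. Every interval includes 0 in the first 2 panels, and in the last the intervals of Mbp and Ermn lie just above 0 before adjustment.

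Rats of the same group differed widely. The 9 members summed to 2914 to 4152 among Control rats (median 3923), 3097 to 6104 among Low rats (median 4394) and 1882 to 4849 among High rats (median 3757). Rat 63 of the Low group was the highest of the 24 in 8 members and rat 68 of the High group the lowest in the same 8. Opalin was highest in Control rat 53 and lowest in High rat 71. From the lowest to the highest rat, Cnp spanned 2.49-fold and Mbp 3.54-fold, with the other 7 between. High rat 66 was the highest of its group in 7 members, and Control rat 55 the highest of its group in 7. The neuron markers summed to 3550 in rat 63 and 3419 in rat 68, within the Control range of 2455 to 3713, and the astrocyte markers to 3016 (rat 63) and 2487 (rat 68), the latter below every Control rat (2570.1 to 3933). The striatum markers summed to 401 in rat 63 and to 227 in rat 68, the lowest of the 24, and the part of these values in the myelin levels was not tested.

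Within groups the members varied together across rats. After each group mean was removed, Mbp correlated with Mag (Pearson r = 0.92), Mog (0.89), Cnp (0.88), Cldn11 (0.86), Mal (0.84) and Mobp (0.82) over the 24 rats. Each of these 6 had a permutation p of 1e-05, the smallest that 100000 permutations can give, and an adjusted p of 1.33e-05 over the 8 relations. Ermn followed at r = 0.67 (permutation test, adjusted p = 0.000537), and Opalin at r = 0.41 (permutation test, adjusted p = 0.0486). Spearman's rho ran from 0.57 (Ermn) to 0.81 (Mog) for these 7, and was 0.45 for Opalin (permutation test, adjusted p = 0.0277). Without the 2 rats farthest from the median of the group-centred Mbp values, which were Low rat 59 and High rat 68 (rat 63 was kept), r was 0.56 to 0.89 for the 7 and 0.39 for Opalin. Within the High group r was 0.91 to 0.99 for the 7, within Low 0.64 to 0.91, and within Control -0.03 (Ermn) to 0.71 (Cnp). Opalin had 0.53 within High, 0.44 within Low and 0.06 within Control. The permutations ran over all 24 rats together, although the groups differed in spread. The coefficient of variation of Mbp was 10.8% in Control and 28.3% in High, so these p-values do not speak for each group. All points share a scaling sum with the other genes of the same library.

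Over all 36 pairs of members the median r was 0.79. The closest pair was Mog and Mag, the surface glycoprotein and the axonal adhesion molecule, at 0.98, and Cnp with Cldn11 followed at 0.97. Among Mbp, Mog, Mag, Cnp, Cldn11 and Mal the 15 pairs ran from 0.84 to 0.98. The 8 pairs with Opalin ran from 0.33 (with Mobp) to 0.48 (with Mog), and all 28 pairs without it lay at 0.67 or above. Against the mean of the other 8, r was 0.45 for Opalin, 0.78 for Ermn, 0.82 for Mobp, and 0.89 to 0.96 for the rest.

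**Figure D3:**
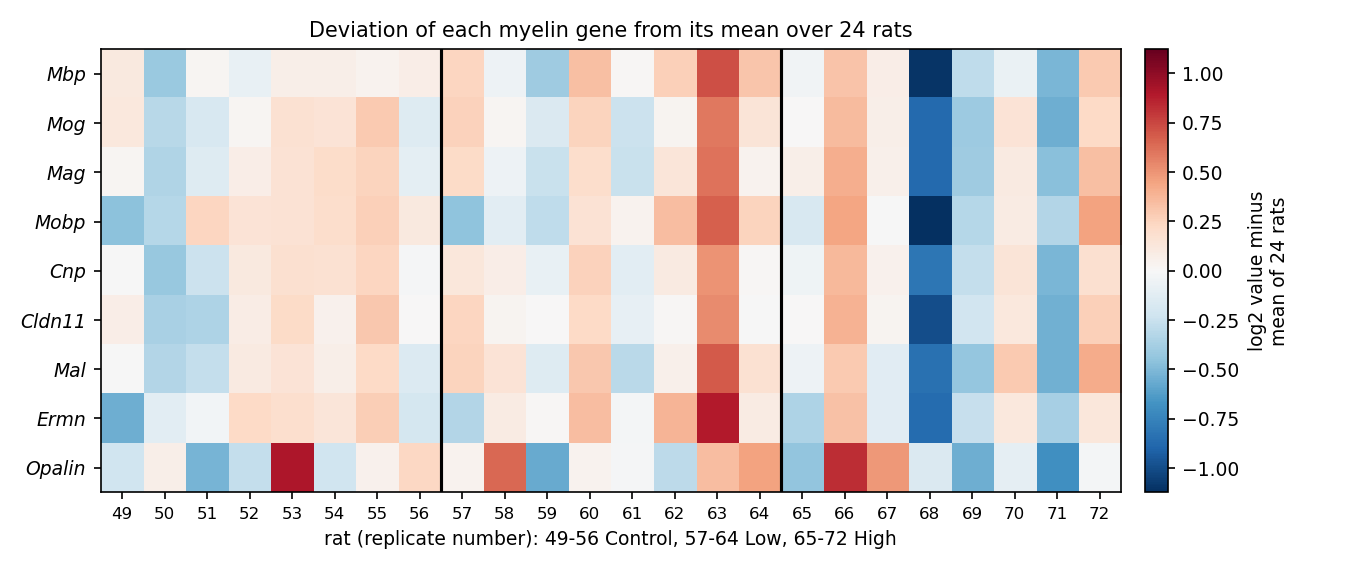
Log2(scaled coverage + 1) of each myelin gene (rows) minus its mean over the 24 rats, by rat (columns, with black lines between Control, Low and High), red above and blue below the mean. Columns tend to share a colour from Mbp to Ermn, rat 63 being red and rat 68 blue, while the Opalin row has its own pattern with rats 53 and 66 highest.

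Among the genes outside the members that followed them most closely, by Pearson r over the 24 rats with the mean of the members' standardised, group-centred log2 values, was Tf (r = 0.96), transferrin, which oligodendrocytes make. Adamts4 (0.96), a secreted protease of mature oligodendrocytes, Tspan2 (0.95), a tetraspanin, and Jam3 (0.94), a junctional adhesion molecule, were also among them. Their mean levels over 24 rats were 223 for Tf, 13.6 for Adamts4, 101 for Tspan2 and 38.9 for Jam3. These 4 were on the list of other myelin and mature oligodendrocyte genes. The 46 tested genes of that list had a median r of 0.82, and 39 of them were above 0.5. The list labelled myelin lipid synthesis also holds Galc, Arsa, Psap, Asah1 and Plp2, which are not synthesis genes, with r from 0.13 (Arsa) to 0.32 (Galc). The median r was 0.51 for the 16 genes of that list, 0.59 for 13 oligodendrocyte transcription factors and 0.31 for 12 precursor markers. It was -0.08 for 9 neuron markers, -0.12 for 8 cortical layer markers, 0.11 for 8 astrocyte markers and 0.24 for 8 microglia markers, with 0 genes above 0.5 in each of these lists. Striatum markers had a median of 0.27, with 8 of 8 positive, and peripheral myelin markers had 0.31, with 2 of 6 above 0.5, close to the precursor list. Across all 15644 genes tested the median was 0.13, and 662 were above 0.5. The lists were put together with earlier results of these data known, and r is given as a description.

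**Figure D4:**
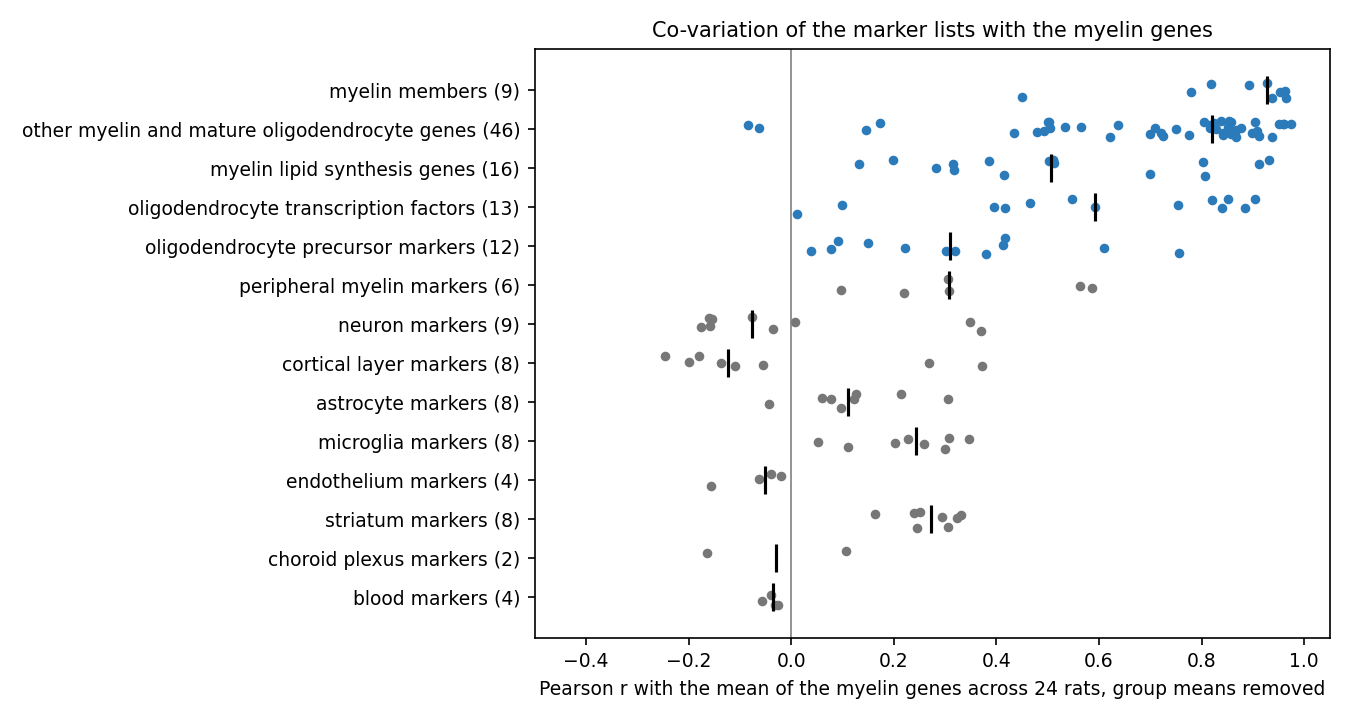
Pearson r across 24 rats (horizontal axis) between each listed gene and the mean of the myelin genes after group means were removed, 1 point per gene, with a black line at the list median and the number of genes in parentheses (oligodendrocyte lists blue, others grey). A member is set against the mean of the other 8, and the medians of the oligodendrocyte lists lie to the right of those of neurons and astrocytes, with precursor (0.31) and striatum (0.27) markers close together.

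Since the members moved together, each was also divided by Cnp in the same rat, a comparison added after the values had been seen. The ratio of Mbp to Cnp was 5.92 to 8.13 among Control rats (median 6.55), 5.43 to 8.31 among Low rats (median 7.38) and 5.56 to 7.34 among High rats (median 6.74). The groups overlapped for all 8 ratios. In 24 exact permutation tests of the mean log2 ratio, adjusted p was 0.921 to 0.990, and the largest difference was 0.14 (log2) for Ermn in Low against High. The coefficient of variation within groups was 4.49% to 7.12% for Mog and 4.64% to 5.71% for Cldn11, but 28.1% to 32.8% for Opalin. The ratios to Cnp thus varied less between rats than the levels for Mog and Cldn11, whose own coefficients were 14.2% to 27.5% and 15.2% to 27.8%.

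For Mbp and Mobp the value depended on which record of the table was read. In Low tables the coverage of Mobp was 0.589 to 0.654 of the value that its FPKM gives on the coverage scale, against 0.941 to 0.999 in Control and High. For Mbp this share was 0.61 in every Low table and 0.736 to 0.781 in the others, and for Mag the medians differed too. FPKM on the coverage scale, here called transcript-summed because StringTie adds FPKM over the transcripts of a gene, gave Mobp medians of 226 for Control rats, 342 for Low rats and 189 for High rats. On that scale Mobp passed in Low against Control (log2 fold change 0.68, adjusted p = 0.0112 by limma) and in Low against High (0.86, adjusted p = 0.00121 by limma). Mbp passed there too, at 0.50 (adjusted p = 0.0410 by limma) and 0.65 (adjusted p = 0.00558 by limma). These were 2 of 9 members in each comparison. Of all 15816 genes tested on that scale, 2087 passed in Low against Control and 3297 in Low against High. However, Control and High tables also held an assembled locus on the same strand at Mobp, which had 1.08 to 2.25 times the FPKM of the reference record. When the larger of both records was taken, the Mobp medians were 334 for Control rats, 342 for Low rats and 330.5 for High rats. Low tables held 0 assembled loci, so this reading could raise the Control and High values alone. Exact permutation tests then gave differences of 0.04 (p = 0.791) for Low against Control and 0.04 (p = 0.842) for Low against High, not adjusted. For Mbp they were 0.21 (exact permutation p = 0.143) and 0.36 (exact permutation p = 0.0985). The kind of table moves with the Low group, and its part in these values cannot be told apart from that of exposure.

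**Figure D5:**
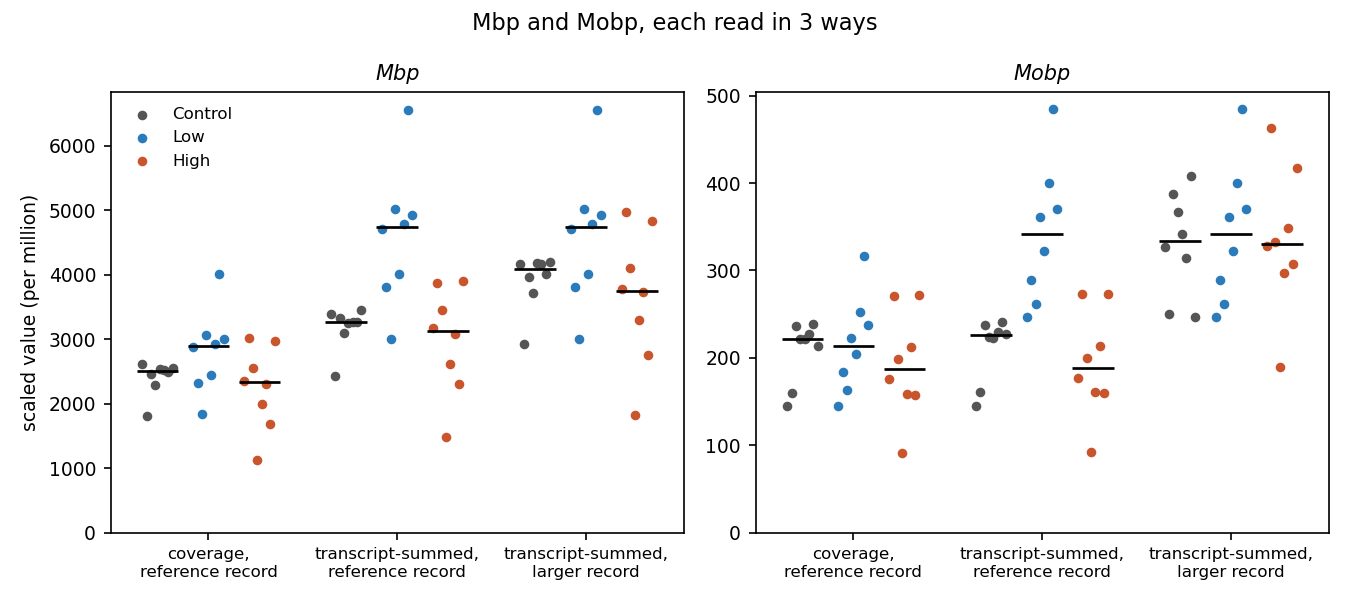
Scaled values (per 1000000 of reference coverage) of Mbp (left) and Mobp (right) in each rat, read as coverage of the reference record, as transcript-summed coverage of that record, and as the larger of that record and the assembled locus, with black lines at group medians (Control grey, Low blue, High orange). For Mobp the Low group stands higher in the middle reading, and the 3 medians are 334, 342 and 330.5 in the last.

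The other genes of the pathway are counted beside the share of all genes that passed, which was 6.11% in Low against Control, 0% in High against Control and 11.7% in Low against High. Of 46 tested genes of the other myelin and mature oligodendrocyte list, 0 were higher and 1 was lower in Low against Control, 0 differed in High against Control, and 1 was higher and 1 lower in Low against High. The medians of their log2 fold changes were 0.11, -0.06 and 0.17. Gjb1, a gap junction connexin, ran from 2.69 to 12.2 in Low (median 6.72), from 11.7 to 18.6 in Control (median 14.0) and from 8.26 to 19.2 in High (median 15.0). It fell by 1.06 on the log2 scale against Control (adjusted p = 0.00535 by limma) and was 0.98 lower than in High (adjusted p = 0.00706). On the transcript-summed scale its medians were 15.0 in Low, 14.7 in Control and 15.0 in High, and neither difference passed (adjusted p = 0.973 and 0.568 by limma). With libraries 56 to 62 as a covariate the differences were -1.03 and -0.94, and neither passed (adjusted p = 0.0971 and 0.205 by limma). Omg, a glycoprotein of the myelin surface, was higher in Low (136 to 215, median 187) than in High (128 to 170.4, median 147), by 0.30 on the log2 scale (adjusted p = 0.0118 by limma), and by 0.30 on the transcript-summed scale (adjusted p = 0.00683). With libraries 56 to 62 as a covariate it did not pass (0.36, adjusted p = 0.103). Across rats, r with the mean of the members was 0.17 for Omg and 0.50 for Gjb1, beside medians of 0.82 for their list and 0.13 over all genes. In High against Control the largest differences of the list were -0.21 for Cryab, a small heat shock protein, and -0.19 for Adamts4, both at an adjusted p of 0.999 by limma.

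The list labelled myelin lipid synthesis also holds Galc, Arsa, Psap, Asah1 and Plp2, so its counts and medians are not those of synthesis genes alone. Of its 16 genes, 2 were lower in Low against Control, where 6.11% of all genes passed, and 0 differed in High against Control. In Low against High 2 were lower, near the 11.7% of all genes. In each comparison 0 were higher, and the medians were 0.10, -0.04 and 0.13. Elovl1, which elongates very long chain fatty acids, fell by 0.71 against Control (adjusted p = 0.000359 by limma), from a median of 31.0 to 15.9, and the ranges did not overlap. Aspa, which releases acetate from N-acetylaspartate, fell by 0.57 (adjusted p = 0.00121 by limma), from a median of 9.40 to 6.33, again without overlap. Against High they were lower by 0.76 (Elovl1, adjusted p = 0.000121 by limma) and 0.46 (Aspa, adjusted p = 0.00599 by limma). On the transcript-summed scale Elovl1 had differences of -0.08 and -0.20 (adjusted p = 0.675 and 0.185), and Aspa of 0.21 against Control (adjusted p = 0.353) and 0.57 against High, the opposite direction (adjusted p = 0.00438, limma). With libraries 56 to 62 as a covariate Aspa passed in neither comparison (adjusted p = 0.0853 and 0.303 by limma). Elovl1 passed in both with that covariate, at -0.80 against Control and -0.87 against High (adjusted p = 0.00248 and 0.00238 by limma). In High against Control, Ugt8, which makes galactocerebroside, and Fa2h, which hydroxylates its fatty acids, had log2 fold changes of -0.18 and -0.12 (adjusted p = 0.999 each by limma).

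Of 13 oligodendrocyte transcription factors, 0 differed in either comparison with Control, and 1 was higher in Low against High, where 11.7% of all genes passed, with medians of 0.12, -0.08 and 0.22. Sox8 was 0.29 higher in Low than in High (adjusted p = 0.0366 by limma), with 25.6 to 34.6 in Low and 20.0 to 29.4 in High, and did not pass with libraries 56 to 62 as a covariate (0.28, adjusted p = 0.335). Myrf, which switches on the myelin genes, had 0.19 in Low against Control and Zfp488 had 0.29, and the lowest adjusted p of the list there was 0.289 by limma. In High against Control Zeb2 had -0.26 and Nkx2-2 had -0.22 (adjusted p = 0.999 each by limma). Of 12 tested precursor markers 0 passed in each comparison, with medians of -0.04, -0.17 and 0.09. Tnr, an extracellular matrix protein, and Bmp4, a ligand of the lineage, had log2 fold changes of -0.65 and 0.23 in Low against Control and of -0.37 and 0.33 in Low against High. In High against Control Tnr had -0.28 and Enpp6, a phosphodiesterase of newly formed oligodendrocytes, had -0.26. The lowest adjusted p of the precursor list was 0.307 in Low against Control and 0.152 in Low against High.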

How the data were processed

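Frontal cortex RNA of 24 rats was sequenced from stranded, polyA-selected libraries. Per the labels, FastQC, Trimmomatic, TopHat2 and StringTie were used, with versions and options not given in the sources read. The authors deposited 1 StringTie gene table per rat, with coverage (a signal, the mean read depth per base), FPKM and a TPM column. The deposited FPKM is normalised for gene length and library size. The deposited TPM column is treated as a score, since over reference genes it sums to 1000000 in Low tables and, as a multiple of that, to 1.70 to 1.98 in the others. The tables hold no read counts, so counting error is unknown.

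Coverage of entries with an Ensembl identifier was summed per gene and divided by the library's total, then multiplied by 1000000. A mean of 1 or more was required, and the genes that had it (15644 of 32883, all 9 members among them) entered limma 3.58.1 (trend, robust) in R 4.3.3 on log2(value + 1), which understates changes of low genes, with 3 groups in 1 fit, with two-sided tests and a threshold of 0.05 on the Benjamini-Hochberg adjusted p. The fit was tested on simulated data. Permutation tests were two-sided, run in Python 3.11.15 with scipy 1.17.1, numpy 2.4.6 and pandas 2.3.3. Figures used matplotlib 3.10.9. Correlations used log2 values minus the group mean.

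The members, all 14 gene lists and libraries 56 to 62 were chosen with earlier results of these data known. Of 48 names of other myelin genes 45 were found and Tmem125 has 2 identifiers. Named genes are the 9 members, up to 5 genes per list and comparison past the threshold (otherwise the 2 largest differences), and the 5 genes most like the members, and some results of this rule are not reported here. Alternatives were pseudocount 0.1, no filter, a minimum mean of 5, 3 other scalings, the FPKM and TPM columns, only the groups compared, libraries 56 to 62 as a covariate, exact permutation tests and each rat left out. The transcript-summed scale, the larger record and the ratios to Cnp were added after seeing the data. Promoters came from RefSeq (GRCr8).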

Additional observations from a re-analysis of the deposited data

Results flagged for a closer look

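In 27 sets of 8 rats (9 genes in 3 groups), the distance of the most extreme rat from its nearest neighbour was compared with Dixon's 95% critical value for 8 samples. Chance alone would mark about 1 in 20 sets, or 1.35 here, and 3 were marked. The 9 genes come from the same rats and vary together, so the 27 sets are not separate. Whether 3 is more than chance gives was not tested. Mbp was low in Control rat 50, at 1812 against 2293 to 2613 in the other 7, a gap of 0.601 of the range. Mag was high in Low rat 63, at 278 against 153 to 211, a gap of 0.536. Opalin was high in Control rat 53, at 80.8 against 29.5 to 50.3, a gap of 0.595. Rat 50 was also the lowest Control rat in Mog, Mag, Cnp, Cldn11 and Mal. Rat 53 was not the highest or lowest of Control in any of the other 8 members.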

How the results depend on the processing

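The count of members past the threshold was 0 of 9 in each comparison with coverage. In Low against Control it was 9 with the FPKM column, 2 with the TPM column and 2 on the transcript-summed scale (Mbp and Mobp in both), and in Low against High it was likewise 9, 2 and 2. With FPKM the median log2 fold change over all genes was 0.53 in Low against Control and 0.52 in Low against High, beside 0.66 and 0.73 over the members, and 12393 and 12410 of 13816 genes passed. With TPM 3952 and 3927 of 15587 genes passed in these comparisons, and on the transcript-summed scale 2087 and 3297 of 15816. In High against Control it was 0 under every alternative run. For the list of other myelin genes, the count of 1 in Low against Control was 2 with median-of-ratios scaling, 2 with mitochondrial genes out of the scaling sum, 45 with FPKM, 8 with TPM, 0 with libraries 56 to 62 as a covariate, 4 on the transcript-summed scale, and 1 to 2 with each rat left out (2 without Control rat 53 or without Low rat 61). Its count of 2 in Low against High was 1 without scaling, 45 with FPKM, 10 with TPM, 0 with the covariate and 8 on the transcript-summed scale, and 2 to 3 with each rat left out (3 without High rat 66). The causes were not tested.

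With each rat left out, 0 members passed in any of 24 fits per comparison, and the lowest adjusted p was 0.339 in Low against Control, 0.577 in High against Control and 0.0686 in Low against High. Several small differences changed sign without passing, as Mobp did in Low against Control without rat 63 (-0.05). Mbp with Opalin had r = 0.39 with FPKM (permutation test, adjusted p = 0.0629), and the other 7 relations kept their side of the threshold under every alternative run.

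Over all genes, 192 were higher and 764 lower in Low against Control, but 858 and 901 with mitochondrial genes out of the sum and 56 and 705 without scaling. In Low against High 829 were higher and 999 lower, but 1550 and 1169, 420 and 1493 (median-of-ratios) and 108 and 1262 (no scaling). The 956 calls in Low against Control became 3952 with TPM, 2087 on the transcript-summed scale, 361 with the covariate, 566 with only the groups compared and 556 at a minimum mean of 5. The 1828 in Low against High became 3927, 3297, 354 (covariate) and 1192 (minimum mean 5). No paired analysis was possible because the replicate numbers 49 to 72 are not shared between groups. Depth in reads per gene is unknown, and 8 rats per group left members with standard errors of 0.14 to 0.21 on the log2 scale.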

Other observations

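Markers of other cells were tested in the same fit, in which 6.11% of all genes passed in Low against Control, 0% in High against Control and 11.7% in Low against High. Of 6 tested markers of peripheral myelin, made by Schwann cells, 0 passed in either comparison with Control, and Egr2, a transcription factor of Schwann cells that neurons also use as an activity gene, was 1.42 higher on the log2 scale in Low than in High (adjusted p = 0.00438 by limma). It ran from 3.11 to 21.3 among Low rats (median 15.6), 1.16 to 10.9 among High rats (median 4.56) and 3.90 to 11.5 among Control rats (median 6.25), and passed also with libraries 56 to 62 as a covariate (adjusted p = 0.0197). Its log2 fold change against Control was 0.94 in Low (adjusted p = 0.0850) and -0.47 in High (adjusted p = 0.999). Fabp7, a fatty acid binding protein, had 0.22 in Low against Control, not past the threshold (adjusted p = 0.567 by limma). Of 4 tested endothelial markers 0 passed against Control, and Slco1a4, a transporter of brain vessels, was 0.33 higher in Low than in High (adjusted p = 0.0235 by limma), but not with the covariate (0.15, adjusted p = 0.599).

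Of 9 neuron, 8 cortical layer, 8 astrocyte, 8 microglia, 8 striatum, 2 choroid plexus and 4 blood markers tested, 0 passed in any comparison by limma. In Low against Control unadjusted p was under 0.05 for 1 neuron and 2 layer markers, beside 2885 of all 15644 genes. In Low against High it was under 0.05 for 2 neuron and 3 layer markers, beside 4545 of all 15644 genes. For the other lists of these it was under 0.05 for 0 markers. In Low against Control the medians were 0.12 for neuron, 0.14 for layer, 0.00 for astrocyte, 0.09 for microglia, 0.08 for endothelial, -0.35 for choroid plexus and -0.27 for blood markers, and in High against Control those of astrocyte, microglia, choroid plexus and blood markers were -0.07, 0.04, -0.28 and -0.10. In Low against High the cortical layer markers had the largest median of these, 0.35 on the log2 scale with 8 of 8 positive, and Neurod6, a transcription factor of cortical neurons, had 0.62 (adjusted p = 0.0540). The neuron markers had a median of 0.17 there, the astrocyte markers 0.10, the microglia markers 0.04, the striatum markers -0.21, the choroid plexus markers -0.07 and the blood markers -0.19. Against Control the striatum markers had a median of -0.57 in Low and -0.31 in High, with 8 of 8 negative in both and a lowest adjusted p of 0.422 in Low. Their summed level was 446 to 1015 among Control rats, 301 to 740.5 among Low rats and 227 to 1606 among High rats.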
